A study of Homo sapiens with 9 samples.

Results

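The genes described here are 50 protein factors that carry messenger RNA through translation: the initiation factors named EIF1 to EIF6, the elongation factors EEF1 and EEF2 with the kinase EEF2K, the release factors ETF1 and GSPT1, the eIF2 alpha kinases EIF2AK1, EIF2AK3 and EIF2AK4, the eIF4E binding proteins EIF4EBP1 and EIF4EBP2 and the cytoplasmic poly(A) binding proteins PABPC1 and PABPC4. They were picked by symbol from a gene-level count table of 59050 symbols, by a rule that uses no measured value, and 48 of them were among the 13463 genes tested. The samples were MEC1, an established cell line derived from chronic lymphocytic leukaemia, a cancer of mature B cells. Cells were grown as conventional culture (2D, n = 3) or mixed with CELLINK Bioink, a printable hydrogel, bioprinted as a scaffold and harvested after 7 days (3D_7d, n = 3) or 14 days (3D_14d, n = 3), and RNA was sequenced with the SMART-Seq v4 low input kit. All 9 samples were the same line, and no other treatment was given in the labels. The sample titles all begin with MECPGK, and what PGK stands for is not given in the sources used here. For both scaffold groups the RNA was taken up in TRIzol, digested with DNase I and then purified over a column, whereas RNA from 2D cells went through the column procedure alone, which has a DNase wash of its own, so culture and extraction cannot be told apart in any comparison with 2D. No day of harvest is given for the 2D samples, so time in culture is confounded with these comparisons too. In such bulk samples, a lower level per cell and fewer cells expressing a gene cannot be told apart either. The labels give replicate numbers without saying whether the replicates were separate cultures, so p-values measure the spread between these samples, which may be technical.

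Total counts ranged from 54662799 to 85968686 per sample. The 6 B cell markers examined were present in every sample. Of the 7 T and NK cell, 6 myeloid and 6 stromal markers, KLRD1, COL1A1 and PDGFRB passed the filter on low counts, CD3D, LYZ and S100A8 were at 0 in all 2D samples, and CD3G reached at most 0.054 CPM, where CPM is the library-normalised count after TMM scaling. KLRD1, a marker of T and NK cells, read 0.36 to 0.87 CPM in 2D, 2.11 to 2.47 CPM in 3D_7d and 3.99 to 6.04 CPM in 3D_14d, and was higher than 2D at both times. The T cell marker CD3E had 0.57 to 1.004 CPM in 2D, 0.17 to 0.29 CPM in 3D_7d and 0.24 to 0.85 CPM in 3D_14d. The stromal markers COL1A1, with 6.74 to 7.38, 1.48 to 4.48 and 1.58 to 4.74 CPM, and PDGFRB, with 3.11 to 4.59, 0.26 to 0.57 and 1.05 to 2.95 CPM in the same order, were lower than 2D at 7 days. The summed level in 2D, 3D_7d and 3D_14d was 1.07 to 2.22, 2.84 to 3.105 and 4.87 to 6.71 CPM for the T and NK cell markers, 0.60 to 0.96, 0.82 to 1.06 and 0.30 to 0.79 CPM for the myeloid markers and 10.3 to 11.5, 2.36 to 5.33 and 2.68 to 8.91 CPM for the stromal markers. The part of these markers in the results was not tested. Replicate 1 of 3D_14d stood somewhat apart, with the lowest correlation with the other replicates of its group (Pearson r of log2 values 0.954) and with 3.21% of its counts in cytosolic ribosomal protein genes, against 1.85 and 2.21% in the other samples of that group.

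In textbook terms, translation begins when eIF2 brings the initiator tRNA to the small ribosomal subunit, helped by eIF1, eIF1A, eIF5 and the large eIF3 complex, while eIF4E, eIF4G and eIF4A recruit the capped mRNA. The exchange factor eIF2B reloads eIF2 with GTP, and phosphorylation of the eIF2 alpha subunit by stress kinases turns eIF2 from a substrate of eIF2B into its inhibitor. The kinase complex mTORC1 adds another layer of control: it phosphorylates the eIF4E binding proteins, which otherwise hold eIF4E away from eIF4G, and it governs mRNAs of the 5′ TOP class, which begin with a run of pyrimidines and encode mainly ribosomal proteins and several of the factors described here.

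Because the class is defined by the first transcribed bases, the start windows of the members on which the results turn are printed here, each with 10 bases before and 20 bases from a start site listed in RefSeq (GRCh38.p14), read 5′ to 3′ on the strand of the gene. Capitals mark a run of at least 5 pyrimidines (C or T) that begins with C at the first transcribed base. These are members of the TOP class with such a run:
EEF1A1, chr6:73521013-73521042, minus strand: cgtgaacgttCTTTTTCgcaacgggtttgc
EEF1B2, chr2:206159885-206159914, plus strand: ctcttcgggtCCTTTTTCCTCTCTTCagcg
EEF2, chr19:3985444-3985473, minus strand: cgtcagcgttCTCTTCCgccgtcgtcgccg
EIF3F, chr11:7987327-7987356, plus strand: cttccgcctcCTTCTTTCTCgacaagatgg
EIF4B, chr12:53006446-53006475, plus strand: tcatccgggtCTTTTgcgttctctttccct
The following members carry such a run and were not listed in the class here, EIF3D among them, which was higher at 7 days while EIF2S3 and EIF4A2 were lower:
EIF2S3, chrX:24054946-24054975, plus strand: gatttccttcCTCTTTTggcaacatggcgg
EIF4A2, chr3:186783567-186783596, plus strand: gcgccgctgtCTTTTCagtcgggcgctgag
EIF3D, chr22:36529147-36529176, minus strand: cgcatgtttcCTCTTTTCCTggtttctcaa
EIF3K, chr19:38619178-38619207, plus strand: tttccaccacCTCTTCCTgttcccgtcctt
EIF3M, chr11:32583821-32583850, plus strand: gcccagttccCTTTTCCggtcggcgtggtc
Members without the run were called in both directions after 7 days, and these examples, chosen after their values were seen, show EIF2B2, EIF2B5 and EIF2S1, which were higher, and EIF1 and EIF5B, which were lower:
EIF2B2, chr14:75002911-75002940, plus strand: cgcccgccccggaagtgcaaactgtgtggt
EIF2B5, chr3:184135348-184135377, plus strand: cagcttccttgcggaagtggtgaccgtgag
EIF2S1, chr14:67360318-67360347, plus strand: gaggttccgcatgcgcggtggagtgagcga
EIF1, chr17:41688875-41688904, plus strand: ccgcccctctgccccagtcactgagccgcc
EIF5B, chr2:99337379-99337408, plus strand: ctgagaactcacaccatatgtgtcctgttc
Such a run was found at 1429 of 35116 listed start sites (4.07%) and, counting any listed start, in 1404 of 27305 genes (5.14%). Among tested genes with a listed start it was found in 707 of 9441 (7.49%), and among tested members in 10 of 37 (27%). Only 39 of the 50 members (78%) could be matched to a listed start, so a comparison of run and fold change over the members was void and none was made. EIF3E, EIF3H, EEF1D and PABPC1, which belong to the class, had no entry and EEF1G had no run at its listed start. EEF1B2 has another listed start, with a window at chr2:206159599-206159628, that lacks the run. A match describes these letters and is not a measured start site in MEC1.

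After 7 days in the scaffold, 28 of the 48 tested factors differed from 2D, 15 higher and 13 lower (edgeR quasi-likelihood test, Benjamini-Hochberg adjusted p at most 0.05 over all 13463 genes). Across all tested genes 43.4% were called in that comparison, 22.2% up and 21.2% down, against 58.3% of the factors. After 14 days, 7 factors were higher and 15 lower than in 2D, 22 of 48 in all, beside 36.2% of all genes called, 19.0% up and 17.2% down. Between the scaffold groups, 2 factors were higher and 12 lower at 14 days than at 7 days, beside 28.1% of all genes called, 14.5% up and 13.6% down. Every scaffold sample lay above every 2D sample for 21 factors and below for 16 at 7 days (32.2 and 32.4% of all genes), and for 9 and 15 at 14 days (24.2 and 25.5%). All 14 day samples lay above all 7 day samples for 2 factors and below for 13 (18.9 and 20.5%). The median log2 fold change of the 48 factors was 0.17, 0.01 and -0.16 in these 3 comparisons, and that of all tested genes was -0.0039, 0.023 and -0.0012. When libraries were scaled by total counts alone, the median of all genes moved to -0.16 at 7 days and -0.18 at 14 days, and 44.8% instead of 53.6% of the factors called at 7 days, and 15% instead of 31.8% at 14 days, were higher. Over all genes the share of calls that were higher moved from 51.1 to 37.6% at 7 days and from 52.5 to 33.0% at 14 days under that scaling. The 50 genes together took 1.33 to 1.35% of all counts in 2D, 0.994 to 1.10% in 3D_7d and 0.875 to 0.935% in 3D_14d, and EEF1A1 alone 0.280 to 0.297%, 0.0705 to 0.0757% and 0.0643 to 0.0969%.

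**Figure D1:**
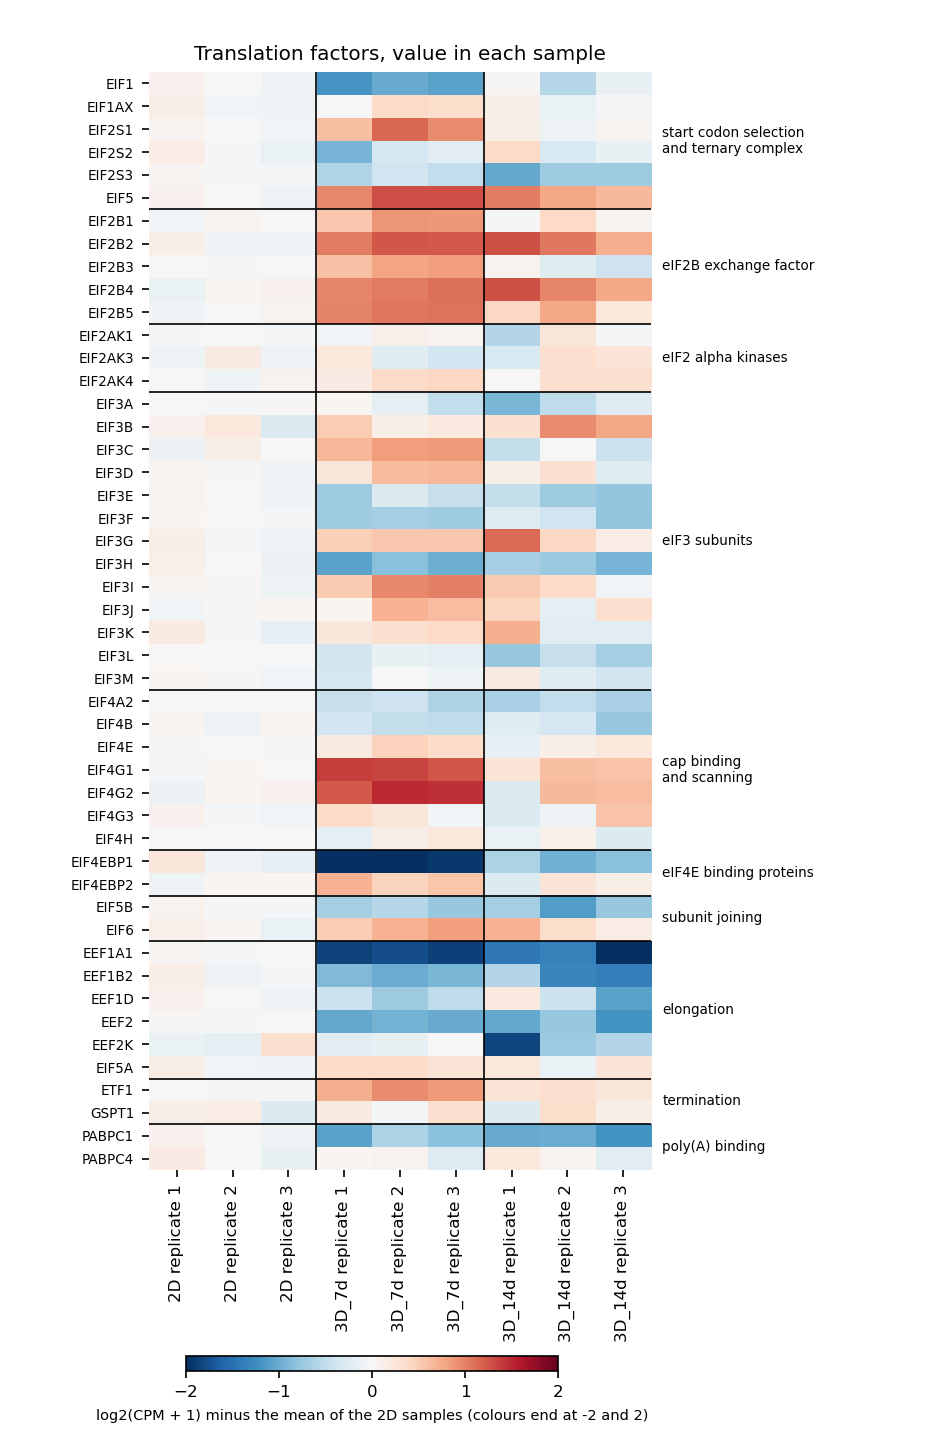
Each row is 1 of the 48 tested factors and each column 1 of the 9 samples. Colour gives log2(CPM + 1) minus the mean of the 2D samples, red for higher and blue for lower. In the 3D_7d columns EIF2B1 to EIF2B5, EIF4G1, EIF4G2 and EIF5 are red in all 3 samples and EIF4EBP1, EEF1A1, EEF2 and EIF1 are blue.

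The factors whose mRNAs belong to the 5′ TOP class were lower in the scaffolds, with 0 called higher in any comparison, by edgeR, by DESeq2 or at an unadjusted p under 0.05. Of 10 listed (EEF1A1, EEF1B2, EEF1D, EEF1G, EEF2, EIF3E, EIF3F, EIF3H, EIF4B and PABPC1), 9 were tested and 8 fell at 7 days, with a median log2 fold change of -0.83 and a range of -1.83 to -0.46. At 14 days 8 of the 9 were lower than in 2D, with a median of -0.78, and none was called between 14 and 7 days (median 0.03, with the direction of this median turning to -0.03 under total-count scaling). DESeq2 also called 0 of the 9 there, and 0 had an unadjusted p under 0.05. The remaining 39 tested factors gave 15 higher and 5 lower at 7 days (median 0.33) and 7 higher and 7 lower at 14 days (median 0.08). Over all tested genes 22.2% were called higher and 21.2% lower at 7 days, and 19.0 and 17.2% at 14 days. EEF1D was the member of the class that was not called, with log2 fold changes of -0.55 and -0.35. The 74 tested cytosolic ribosomal protein genes, the main members of the class, gave 1 higher and 65 lower at 7 days (median -1.19), and 0 higher (also by DESeq2 and at an unadjusted p under 0.05) and 23 lower at 14 days (median -0.44). Without replicate 1 of 3D_14d the latter count was 63 (median -0.81), and 9 of 9 TOP class factors were lower at both time points. With a trend of fold change on transcript length removed, 7 of 9 TOP class factors were lower at 7 days (median -0.64) and 6 of 9 at 14 days (median -0.69). Some of these calls rested on single samples. That of EIF3E at 7 days was lost without replicate 1 or 2 of 2D or replicate 1 of 3D_7d (adjusted p = 0.0501 to 0.0633), and that of EIF4B at 7 days without replicate 1 or 3 of 2D or 2 or 3 of 3D_7d (0.0586 to 0.0691). At 14 days the call of EIF3F was lost without any one of the 2D samples or replicate 3 of 3D_14d (0.0502 to 0.0668), and that of EIF4B without any one of the 2D samples, replicate 2 or 3 of 3D_7d or replicate 3 of 3D_14d (0.0517 to 0.104).

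EEF1A1 (chr6:73515750-73521721, minus strand) delivers aminoacyl tRNA to the ribosome and was the most abundant factor per length in 2D, at 571 ± 15.5 RPKM in 2D (CPM per kilobase of summed exons, mean ± SD, n = 3). Its level was 2744, 2599 and 2663 CPM in 2D, 742, 783 and 734 CPM in 3D_7d and 986, 1044 and 632 CPM in 3D_14d. Every scaffold sample lay below every 2D sample, and the 14 day samples overlapped with those of 7 days. The log2 fold change was -1.83 ± 0.18 (SE, adjusted p = 1.45e-05) at 7 days and -1.59 ± 0.18 (SE, adjusted p = 4.83e-05) at 14 days, a 3.54-fold and a 3.01-fold lower level. Between the scaffold groups it was 0.24 ± 0.17 (SE, adjusted p = 0.324). The 39 annotated pseudogenes of EEF1A1 held 0.329% of the reads counted for the gene and these pseudogenes together. How reads with several matches were treated is not given, so this share does not show how many reads match both. EEF2 (chr19:3976056-3985463, minus strand), the translocase that moves the ribosome along the mRNA, read 1018, 988 and 994 CPM in 2D, 489, 519 and 496 CPM in 3D_7d and 490.1, 592 and 435 CPM in 3D_14d. Both scaffold groups lay under the 2D samples by about the same amount, with log2 fold changes of -0.996 ± 0.14 (SE, adjusted p = 0.000167) and -0.98 ± 0.14 (SE, adjusted p = 0.000261). EEF1B2, a nucleotide exchange factor for EEF1A1, changed by -0.94 and -1.05 on the log2 scale, with both calls made. EIF5A, which helps the ribosome through difficult peptide bonds, was not called, at 0.33 and 0.12. EEF2K (chr16:22206278-22288738, plus strand), the kinase that switches EEF2 off, showed a different time course, with 23.8, 23.2 and 32.9 CPM in 2D, 22.6, 23.6 and 26.4 CPM in 3D_7d and 6.65, 15.4 and 17.1 CPM in 3D_14d. The 3D_7d samples overlapped with 2D and all 3D_14d samples lay below both. The change was -0.14 ± 0.28 (SE, adjusted p = 0.728) at 7 days and -1.03 ± 0.29 (SE, adjusted p = 0.0144) at 14 days, and -0.89 ± 0.29 (SE, adjusted p = 0.0352) between the scaffold groups. Replicate 1 of 3D_14d was the lowest, and without it the last value was -0.56 and the one against 2D -0.71. The 14 day call against 2D was lost without replicate 3 of 2D (adjusted p = 0.0577), and the one between scaffold groups without any one of the 3D_7d samples (0.0577 to 0.103). Within a sample, the ratio of EEF2K to EEF2 in RPKM was 0.0114 ± 0.00239 in 2D, 0.0206 ± 0.00183 in 3D_7d and 0.0112 ± 0.00548 in 3D_14d (SD, n = 3), higher in all 3D_7d samples than in any other (exact permutation test, two-sided, p = 0.1 against each group, the smallest that 3 against 3 allow, and 0.113 after Benjamini-Hochberg adjustment over 18 ratio tests). Within the elongation group 3 of 6 tested factors fell at 7 days and 4 of 6 at 14 days, and edgeR and DESeq2 called 0 higher at either time (1 at an unadjusted p under 0.05, EIF5A at 7 days). Of all tested genes, 21.2% were called lower and 22.2% higher at 7 days, and 17.2 and 19.0% at 14 days.

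**Figure D2:**
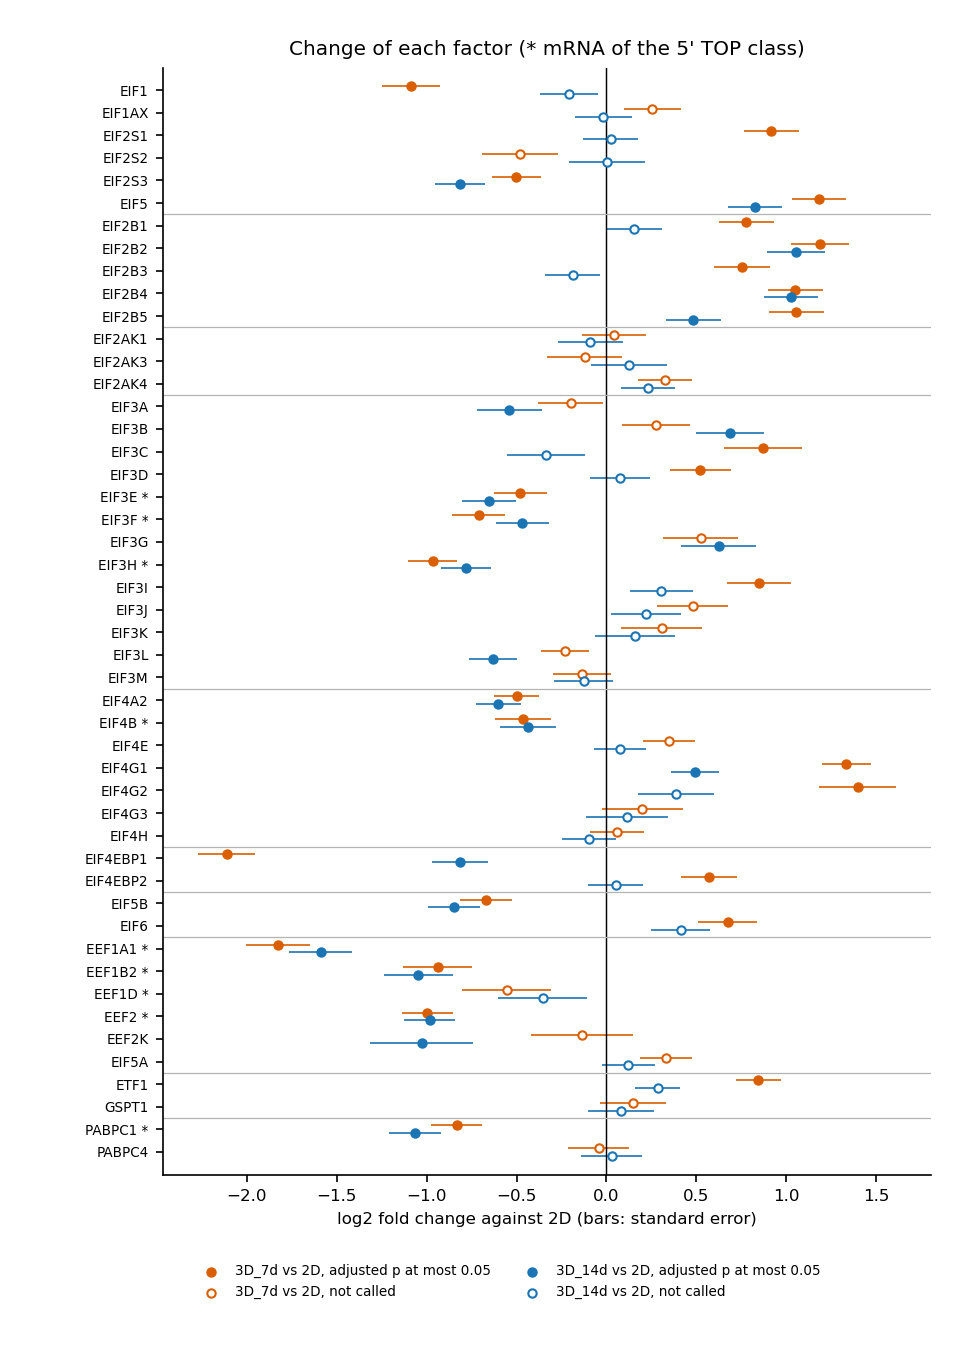
Points are the log2 fold change of each tested factor against 2D at 7 days (orange) and 14 days (blue), with bars for the standard error, and filled points passed an adjusted p of 0.05. The factors marked with an asterisk, whose mRNAs are of the 5′ TOP class, all lie left of 0 at both time points, from -1.83 to -0.35.

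PABPC1 (chr8:100702916-100722088, minus strand), which coats poly(A) tails and bridges them to eIF4G, read 673, 639 and 602 CPM in 2D, 304, 409 and 361 CPM in 3D_7d and 318, 319.5 and 279 CPM in 3D_14d. All scaffold samples lay below all 2D samples, and the log2 fold change was -0.83 ± 0.14 (SE, adjusted p = 0.000652) at 7 days and -1.06 ± 0.15 (SE, adjusted p = 0.00019) at 14 days. Its relative PABPC4 (chr1:39560816-39576790, minus strand) read 33.0, 29.1 and 26.4 CPM in 2D, 30.3, 31.05 and 24.5 CPM in 3D_7d and 34.0, 30.9 and 25.4 CPM in 3D_14d, with overlapping groups, and was not called at -0.04 ± 0.17 (SE, adjusted p = 0.858) and 0.03 ± 0.17 (SE, adjusted p = 0.913).

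All 5 subunits of the exchange factor eIF2B were higher at 7 days, with a median log2 fold change of 1.05, beside 22.2% of all genes. The count of 5 held under each alternative scaling and filter, with the replicate block and without any one sample, and 3 of the 5 changed by at least 1 on the log2 scale. After 14 days 3 of 5 were still above 2D (median 0.48), and 3 of 5 were lower than at 7 days (median -0.57). Of all genes 19.0% were called higher than 2D at 14 days and 13.6% lower than at 7 days. Under scaling by total counts 2 of 5 were higher and EIF2B3 was lower than 2D at 14 days. EIF2B2 (chr14:75002921-75012366, plus strand), the beta subunit, read 40.6, 35.1 and 35.2 CPM in 2D, 76.2, 88.4 and 87.8 CPM in 3D_7d and 90.1, 77.9 and 61.8 CPM in 3D_14d. Every scaffold sample was above every 2D sample, with log2 fold changes of 1.19 ± 0.16 (SE, adjusted p = 0.000131) and 1.05 ± 0.16 (SE, adjusted p = 0.000399). EIF2B4 (chr2:27364352-27370486, minus strand), the delta subunit, overlapped between the scaffold groups, with 53.2, 60.4 and 61.9 CPM in 2D, 116, 121 and 126 CPM in 3D_7d and 142, 116 and 99.5 CPM in 3D_14d. Its changes were 1.05 ± 0.15 (SE, adjusted p = 0.000198) and 1.03 ± 0.15 (SE, adjusted p = 0.000319). EIF2B5 (chr3:184135358-184145311, plus strand), the catalytic epsilon subunit, read 109, 114 and 121 CPM in 2D, 230.0, 241 and 245 CPM in 3D_7d and 153, 196 and 133 CPM in 3D_14d. The 14 day samples lay between the other groups, at 1.06 ± 0.15 (SE, adjusted p = 0.000201) after 7 days, 0.48 ± 0.15 (SE, adjusted p = 0.0251) after 14 days and -0.57 ± 0.15 (SE, adjusted p = 0.0148) between them. The 14 day call was lost without any one of the 2D samples or replicate 2 of 3D_14d (adjusted p = 0.0676 to 0.108) and with total-count scaling (0.149), and the call between scaffold groups without replicate 2 or 3 of 3D_7d (0.0530 and 0.0575). EIF2B3 (chr1:44850522-44986722, minus strand), the gamma subunit, read 48.1, 47.0 and 47.9 CPM in 2D, 72.4, 82.9 and 85.7 CPM in 3D_7d and 49.98, 40.2 and 35.5 CPM in 3D_14d. Its 7 day samples stood above the others and its 14 day samples overlapped with 2D, with 0.75 ± 0.15 (SE, adjusted p = 0.00187) and -0.19 ± 0.15 (SE, adjusted p = 0.364) against 2D and -0.94 ± 0.15 (SE, adjusted p = 0.00127) between the scaffold groups. EIF2B1, the alpha subunit, changed by 0.78, 0.15 and -0.62 on the log2 scale in the same order, the first and last called, and the last lost without replicate 2 or 3 of 3D_7d (adjusted p = 0.0541 and 0.0515). Exons of EIF2B2 and EIF2B1 overlap genes on the opposite strand over 29.3 and 16.2% of their length.

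The 3 subunits of eIF2, the substrate of eIF2B, did not move together. EIF2S1 (chr14:67360328-67386516, plus strand), the alpha subunit on which the stress kinases act, read 149, 143 and 138 CPM in 2D, 216, 317 and 277 CPM in 3D_7d and 154, 133 and 149 CPM in 3D_14d. All 7 day samples stood above the 6 others, with log2 fold changes of 0.92 ± 0.15 (SE, adjusted p = 0.000529), 0.02 ± 0.15 (SE, adjusted p = 0.916) and, between the scaffold groups, -0.89 ± 0.15 (SE, adjusted p = 0.00168). The gamma subunit EIF2S3 (chrX:24054956-24078810, plus strand), which binds GTP and the initiator tRNA, went the other way, with 155, 147 and 148 CPM in 2D, 98.7, 113 and 106 CPM in 3D_7d and 73.2, 90.8 and 91.6 CPM in 3D_14d. Both scaffold groups lay below 2D, at -0.50 ± 0.14 (SE, adjusted p = 0.00998) and -0.81 ± 0.14 (SE, adjusted p = 0.000703). EIF2S2, the beta subunit, was not called, at -0.48 and 0.00. The ratio of the mean RPKM of the 5 eIF2B subunits to that of the 3 eIF2 subunits within a sample was 0.639 ± 0.0575 in 2D, 1.27 ± 0.140 in 3D_7d and 1.06 ± 0.198 in 3D_14d (SD, n = 3). Each scaffold group lay above 2D without overlap in this ratio (exact permutation p = 0.1 for each, adjusted 0.113), and the scaffold groups overlapped (exact permutation p = 0.3, adjusted 0.318).

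None of the 3 eIF2 alpha kinases listed was called in any comparison by the reported edgeR fit or by DESeq2, and only EIF2AK4 at 7 days had an unadjusted p under 0.05 in the edgeR test. EIF2AK4 became called at 7 days with only the 6 samples of that contrast (adjusted p = 0.0352), with the length trend removed (0.0333) and without replicate 1 of 3D_14d (0.0357), and at 14 days with the length trend removed (0.0458). EIF2AK1 (chr7:6022247-6059175, minus strand), the haem-regulated kinase, read 347, 340.0 and 332 CPM in 2D, 328, 365 and 355 CPM in 3D_7d and 226, 401 and 329.7 CPM in 3D_14d, with log2 fold changes of 0.04 ± 0.18 (SE, adjusted p = 0.872) and -0.09 ± 0.18 (SE, adjusted p = 0.73). EIF2AK3 (chr2:88556740-88627464, minus strand), the kinase PERK of the endoplasmic reticulum, read 27.8, 33.3 and 27.6 CPM in 2D, 34.2, 24.9 and 22.5 CPM in 3D_7d and 23.7, 37.4 and 35.6 CPM in 3D_14d, with -0.12 ± 0.21 (SE, adjusted p = 0.668) and 0.12 ± 0.21 (SE, adjusted p = 0.675). EIF2AK4 (chr15:39934115-40035591, plus strand), the amino acid sensor GCN2, read 45.5, 42.3 and 47.6 CPM in 2D, 50.4, 58.9 and 60.6 CPM in 3D_7d and 44.6, 57.4 and 56.6 CPM in 3D_14d, with 0.33 ± 0.15 (SE, adjusted p = 0.0953) and 0.23 ± 0.15 (SE, adjusted p = 0.253). The ranges of 2D and 3D_14d overlapped for each of these kinases, while the 3D_7d samples of EIF2AK4 were all above 2D. A further eIF2 alpha kinase, EIF2AK2, is not among the members. It was not called either, at -0.14 at 7 days, -0.06 at 14 days and 0.08 between the scaffold groups. Kinase activity was not measured, and a p above the threshold does not show that the levels were equal. Of 5 genes for subunits of the phosphatases that act on eIF2 alpha, 3 rose and 0 fell at 7 days in the edgeR test and 1 rose at 14 days (1 lower at 7 days by DESeq2 and at an unadjusted p under 0.05, PPP1R15A). Over all tested genes 22.2% were called higher and 21.2% lower at 7 days, and 19.0 and 17.2% at 14 days. PPP1CA, a catalytic subunit, changed by 0.88 ± 0.18 (SE, adjusted p = 0.00197) and 1.04 ± 0.18 (SE, adjusted p = 0.000967), and PPP1R15B, a targeting subunit, by 0.75 ± 0.17 (SE, adjusted p = 0.00321) at 7 days and -0.56 ± 0.17 (SE, adjusted p = 0.0249) between the scaffold groups.

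EIF1 and EIF5, which act in opposite directions on the stringency of start codon selection, changed in opposite directions after 7 days. EIF1 (chr17:41688885-41692668, plus strand) read 1136, 1069 and 996 CPM in 2D, 471, 532 and 505 CPM in 3D_7d and 1089, 716 and 964 CPM in 3D_14d. The 7 day samples were all below the other groups, which overlapped, and the changes were -1.09 ± 0.16 (SE, adjusted p = 0.000234) against 2D, -0.21 ± 0.16 (SE, adjusted p = 0.327) at 14 days and 0.88 ± 0.16 (SE, adjusted p = 0.0023) between scaffold groups. EIF5 (chr14:103334237-103345025, plus strand), the GTPase activator of eIF2, read 187, 177 and 166 CPM in 2D, 343, 431 and 431 CPM in 3D_7d and 359, 303 and 278 CPM in 3D_14d. Here both scaffold groups lay above 2D, with 1.18 ± 0.15 (SE, adjusted p = 8.1e-05) and 0.83 ± 0.15 (SE, adjusted p = 0.00113). The within-sample ratio of EIF5 to EIF1 in RPKM was 0.0596 ± 0.000349 in 2D, 0.286 ± 0.0226 in 3D_7d and 0.125 ± 0.0249 in 3D_14d (SD, n = 3), with no overlap between any groups (exact permutation p = 0.1 for each pair, adjusted 0.113). EIF1AX, which binds beside eIF1 on the small subunit, was not called, at 0.26 and -0.02.

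The 13 tested subunits of eIF3, the scaffold that joins the small subunit to the mRNA, held calls in both directions, at 7 days in shares near those of all tested genes (22.2% up and 21.2% down). At 7 days 3 rose (EIF3C, EIF3D and EIF3I) and 3 fell (EIF3E, EIF3F and EIF3H), the falling ones all of the TOP class. At 14 days 2 were higher than 2D (EIF3B and EIF3G) and 5 lower (EIF3A, EIF3E, EIF3F, EIF3H and EIF3L). All tested genes at that time gave 19.0% up and 17.2% down. EIF3H (chr8:116642130-116766255, minus strand) read 279, 261 and 241 CPM in 2D, 123, 145 and 132 CPM in 3D_7d and 164, 155 and 136 CPM in 3D_14d, with all scaffold samples below 2D and changes of -0.97 ± 0.14 (SE, adjusted p = 0.000172) and -0.78 ± 0.14 (SE, adjusted p = 0.00093). EIF3B (chr7:2354827-2380745, plus strand), a core subunit, read 277, 301 and 213 CPM in 2D, 372, 288 and 299 CPM in 3D_7d and 323, 502 and 449 CPM in 3D_14d, higher than 2D without overlap at 14 days. Its changes were 0.28 ± 0.19 (SE, adjusted p = 0.259) and 0.69 ± 0.19 (SE, adjusted p = 0.0139), and the second call was lost without replicate 3 of 2D (adjusted p = 0.0850) and with total-count scaling (0.0723). EIF3C (chr16:28688558-28735730, plus strand) was counted at a far lower level than the other subunits, with 5.92, 7.19 and 6.55 CPM in 2D, 11.0, 12.4 and 12.6 CPM in 3D_7d and 4.39, 6.60 and 4.59 CPM in 3D_14d. It changed by 0.87 ± 0.22 (SE, adjusted p = 0.00647) at 7 days, -0.34 ± 0.22 (SE, adjusted p = 0.248) at 14 days and -1.21 ± 0.22 (SE, adjusted p = 0.00229) between them, and since its near-identical copy EIF3CL shares most of its sequence, reads that map to both may be missing and its level is uncertain. Per length, the subunits ranged in 2D from 1.84 ± 0.178 RPKM for EIF3C to 244 ± 11.8 RPKM for EIF3I (SD, n = 3), with EIF3D at 195 ± 9.22, EIF3E at 178 ± 9.73 and EIF3F at 27.7 ± 0.651. The log2 fold changes at 7 days were 0.85 for EIF3I, 0.52 for EIF3D, -0.48 for EIF3E and -0.71 for EIF3F. At 14 days they were 0.62 for EIF3G, -0.54 for EIF3A and -0.63 for EIF3L. Several of these calls were sensitive to single samples. EIF3D at 7 days was no longer called without any one of the 2D samples or replicate 2 or 3 of 3D_7d (adjusted p = 0.0770 to 0.130). EIF3A at 14 days was no longer called without any one of the 2D samples or replicate 1 or 2 of 3D_14d (0.0557 to 0.0695). The call of EIF3G at 14 days was lost without any one of the 2D or 3D_7d samples or replicate 1 of 3D_14d (0.0547 to 0.137), and without the last its change was 0.29. Between the scaffold groups EIF3C, EIF3I and EIF3L were lower at 14 days, and the calls of EIF3I and EIF3L were lost without any one of the 2D samples, replicate 2 or 3 of 3D_7d or replicate 3 of 3D_14d, and for EIF3L also replicate 1 of 3D_14d (0.0608 to 0.156). Exons of EIF3L overlap other genes over 52.0% of their length, 41.6% on the same strand.

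**Figure D3:**
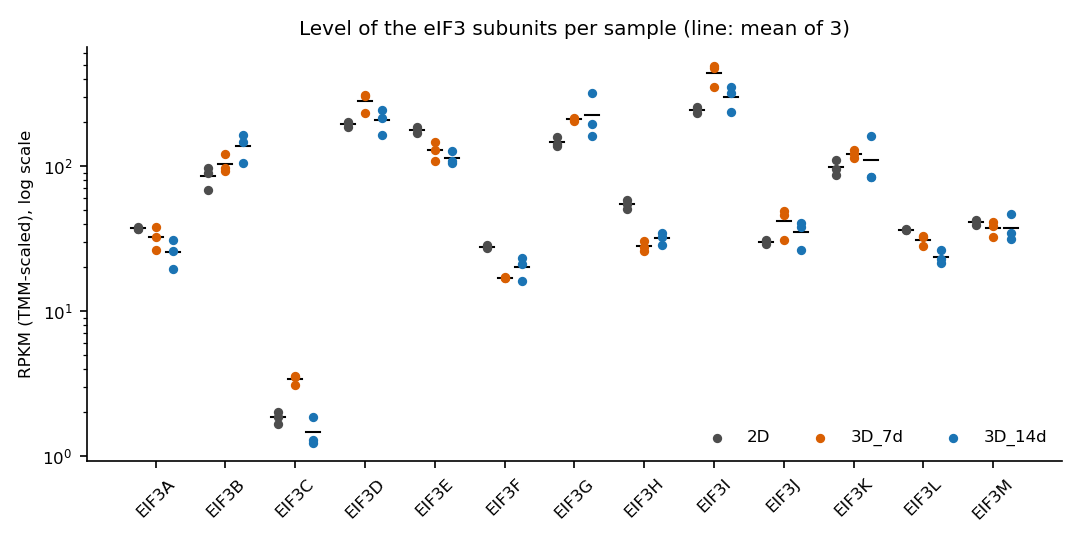
Points are the RPKM of each eIF3 subunit in each sample on a log axis, grouped as 2D (grey), 3D_7d (orange) and 3D_14d (blue), with a line at the mean of 3 samples. EIF3H and EIF3F lie lower in both scaffold groups, EIF3I and EIF3D lie higher in 3D_7d, and EIF3C lies at a mean of 1.84 RPKM in 2D, far under the others.

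Among the factors that recruit capped mRNA, EIF4G1 and EIF4G2 had the largest changes at 7 days. EIF4G1 (chr3:184314495-184335358, plus strand), which ties eIF4E to eIF4A and eIF3, read 143, 151 and 147 CPM in 2D, 386, 375 and 349 CPM in 3D_7d and 179, 224 and 218 CPM in 3D_14d. The 3 groups did not overlap, and the changes were 1.33 ± 0.14 (SE, adjusted p = 1.93e-05) at 7 days, 0.49 ± 0.13 (SE, adjusted p = 0.0124) at 14 days and -0.84 ± 0.13 (SE, adjusted p = 0.00107) between the scaffold groups, the 14 day call being lost without any one of the 2D samples (adjusted p = 0.0583 to 0.0644) and with total-count scaling (0.123). EIF4G2 (chr11:10797050-10808926, minus strand), a relative that lacks the eIF4E binding region, read 394, 442 and 453 CPM in 2D, 1009, 1206 and 1178 CPM in 3D_7d and 352, 674 and 656 CPM in 3D_14d. All 7 day samples were above the others, with 1.40 ± 0.21 (SE, adjusted p = 0.000285) against 2D and -1.01 ± 0.21 (SE, adjusted p = 0.00471) between the scaffold groups. At 14 days it was 0.39 ± 0.21 (SE, adjusted p = 0.17) with replicate 1, which lay below all 2D samples, and 0.64 (adjusted p = 0.00151) without it. The third relative, EIF4G3, was not called, at 0.20 and 0.11. The cap binding protein EIF4E itself was not called, at 0.35 and 0.07, and neither was EIF4H, a helper of the helicase, at 0.06 and -0.10. The helicase EIF4A2 fell by 0.50 and 0.60 on the log2 scale and EIF4B, its TOP class partner, by 0.46 and 0.44. The main helicase gene, EIF4A1, and the elongation factor EEF1G had 0 counts in all samples, which says nothing of their expression: all exonic bases of EIF4A1 and 99.5% of those of EEF1G are also exons of another gene on the same strand (SENP3-EIF4A1 and AC016876.2, and AP002990.1).

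The eIF4E binding proteins went in opposite directions at 7 days. EIF4EBP1 (chr8:38030534-38060365, plus strand) showed the deepest fall of all 48 factors at 7 days, with 238, 193 and 181 CPM in 2D, 44.6, 44.5 and 52.5 CPM in 3D_7d and 131, 104 and 113 CPM in 3D_14d. The 3 groups did not overlap, with 3D_14d between the others. The log2 fold change was -2.11 ± 0.16 (SE, adjusted p = 3.67e-06), a 4.32-fold lower level at 7 days, then -0.81 ± 0.15 (SE, adjusted p = 0.00149) at 14 days and 1.30 ± 0.16 (SE, adjusted p = 0.000209) between the scaffold groups. EIF4EBP2 (chr10:70404145-70428618, plus strand) read 127, 138 and 139 CPM in 2D, 218, 185 and 198 CPM in 3D_7d and 111, 162 and 146 CPM in 3D_14d. Its 7 day samples were above the others, at 0.57 ± 0.15 (SE, adjusted p = 0.0103) against 2D and -0.52 ± 0.15 (SE, adjusted p = 0.0256) between the scaffold groups, and it was not called at 14 days, at 0.05 ± 0.15 (SE, adjusted p = 0.824). The 7 day call was lost without replicate 1 of 2D (adjusted p = 0.0612) and with total-count scaling (0.0676), and the call between scaffold groups without replicate 1 or 3 of 3D_7d (0.0694 and 0.0715). The within-sample ratio of EIF4EBP1 to EIF4EBP2 in RPKM was 13.8 ± 2.80 in 2D, 2.15 ± 0.276 in 3D_7d and 7.84 ± 2.52 in 3D_14d. Their sum relative to EIF4E was 49.6 ± 7.51, 12.4 ± 1.62 and 28.8 ± 6.34, and EIF4G1 relative to EIF4E was 4.26 ± 0.0946, 8.51 ± 1.17 and 5.71 ± 0.257 (SD, n = 3). Each of these ratios separated all 3 groups (exact permutation p = 0.1 for each pair, adjusted 0.113). The exons of EIF4E sum to 12096 bases, most of any member, which lowers its RPKM, so the ratios to EIF4E are to be compared between groups only. The sum weighs a read of EIF4EBP1 (827 bases) more than one of EIF4EBP2 (7491 bases), so the size of its change depends on these lengths. Mean CPM in 2D, 3D_7d and 3D_14d was 204, 47.2 and 116 for EIF4EBP1 and 135, 200 and 140 for EIF4EBP2. For EIF4E it was 64.6, 82.1 and 67.9.

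**Figure D4:**
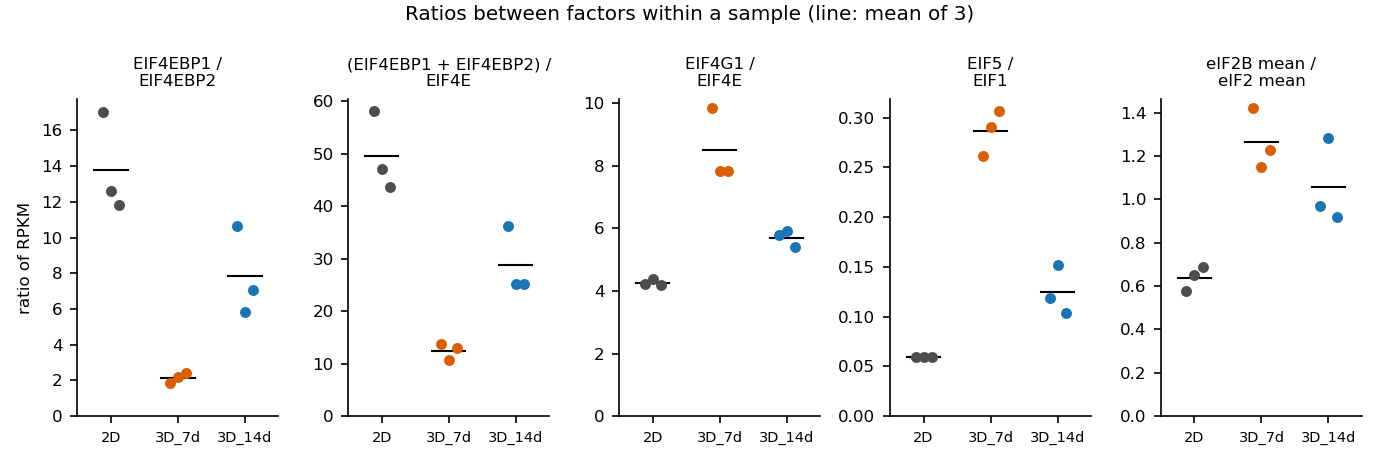
Points are ratios of RPKM within each of the 9 samples, with a line at the mean of 3 samples. EIF4EBP1 relative to EIF4EBP2 falls from 13.8 in 2D to 2.15 in 3D_7d and stands at 7.84 in 3D_14d, while EIF4G1 to EIF4E, EIF5 to EIF1 and eIF2B to eIF2 are higher in both scaffold groups than in 2D.

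EIF5B (chr2:99337371-99401326, plus strand), the GTPase that joins the ribosomal subunits, read 133, 126 and 123 CPM in 2D, 80.2, 85.2 and 74.8 CPM in 3D_7d and 78.8, 58.1 and 74.9 CPM in 3D_14d. All scaffold samples lay below 2D, with log2 fold changes of -0.67 ± 0.14 (SE, adjusted p = 0.0027) and -0.85 ± 0.15 (SE, adjusted p = 0.000806). EIF6, which keeps the large subunit from joining early, rose by 0.67 at 7 days and was not called at 14 days (0.41). Of the release factors, ETF1 (chr5:138506095-138543236, minus strand), which reads the stop codon, read 136, 136 and 131 CPM in 2D, 221, 259 and 243 CPM in 3D_7d and 163, 170.4 and 157 CPM in 3D_14d. The 3 groups did not overlap, with 0.84 ± 0.13 (SE, adjusted p = 0.000237) at 7 days, 0.28 ± 0.12 (SE, adjusted p = 0.0926) at 14 days and -0.56 ± 0.13 (SE, adjusted p = 0.00647) between the scaffold groups. Its partner GTPase GSPT1 (chr16:11868128-11916082, minus strand) read 175, 180.1 and 134 CPM in 2D, 182, 158 and 201 CPM in 3D_7d and 133, 207 and 176 CPM in 3D_14d, with overlapping groups and changes of 0.15 ± 0.18 (SE, adjusted p = 0.539) and 0.08 ± 0.18 (SE, adjusted p = 0.764).

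**Figure D5:**
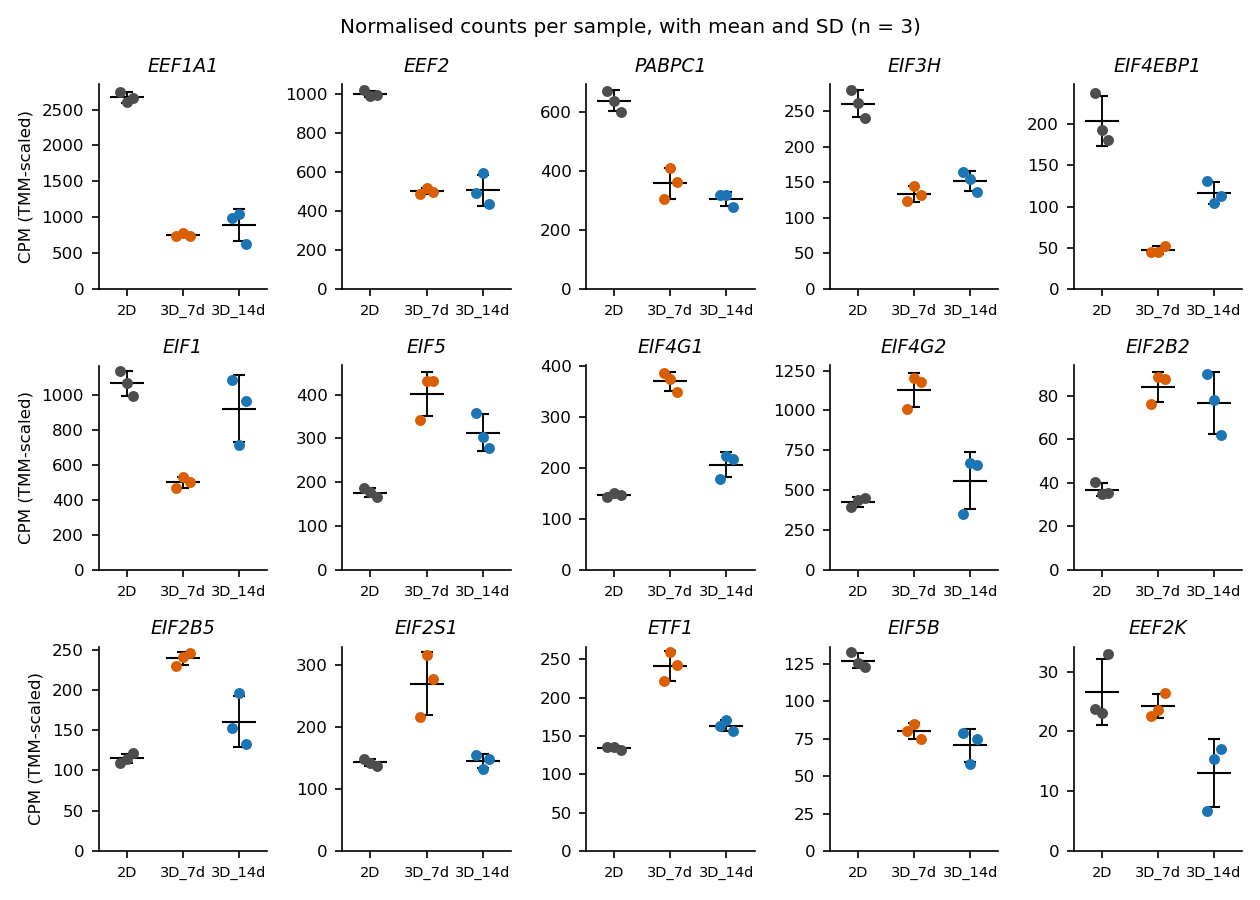
Points are CPM in each sample for 15 factors, with the mean and SD of 3 samples, on axes that start at 0. EEF1A1, EEF2, PABPC1, EIF3H and EIF5B are lower in both scaffold groups than in 2D, and EIF1, EIF4G2, EIF2S1 and ETF1 differ most in 3D_7d.

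Other genes of translation were taken from lists named by function. Of 25 tested further factors and factor regulators, 5 rose and 8 fell at 7 days and 1 rose and 6 fell at 14 days, beside 22.2 and 21.2% of all genes at 7 days and 19.0 and 17.2% at 14 days. Among them EIF4EBP3, the third eIF4E binding protein, read 11.2, 10.7 and 9.19 CPM in 2D, 1.44, 1.02 and 1.502 CPM in 3D_7d and 3.93, 4.24 and 4.03 CPM in 3D_14d, lower at 7 days, with a log2 fold change of -2.97 ± 0.25 (SE, adjusted p = 6.76e-06), and higher at 14 than at 7 days, with 1.62 ± 0.24 (SE, adjusted p = 0.000778). PABPC1L, a relative of PABPC1, fell at both times, with -2.07 ± 0.28 (SE, adjusted p = 0.000115) and -2.46 ± 0.28 (SE, adjusted p = 5.91e-05). PDCD4, an inhibitor of eIF4A, was higher at 14 days by 0.86 ± 0.13 (SE, adjusted p = 0.00034). A list of 16 genes held mTORC1, its regulators and targets, and the kinases that act on factors. It mixes activators with inhibitors, so its counts do not describe the complex itself. Of these 16, 4 rose and 2 fell at 7 days and 6 rose and 4 fell at 14 days. In both lists the share called higher at 7 days was near that of all genes, while the other shares lay above or below it. No test was made of these lists. MTOR, the catalytic subunit, read 16.6, 18.4 and 21.5 CPM in 2D, 55.7, 48.6 and 52.1 CPM in 3D_7d and 18.3, 25.03 and 18.6 CPM in 3D_14d, higher at 7 days by 1.47 ± 0.18 (SE, adjusted p = 5.35e-05), not called at 14 days with 0.13 ± 0.17 (SE, adjusted p = 0.586), and lower at 14 than at 7 days, with -1.34 ± 0.17 (SE, adjusted p = 0.000347). SESN2, an amino acid sensor that restrains mTORC1, fell at 7 days, with -1.40 ± 0.19 (SE, adjusted p = 0.000117). It was also lower than 2D at 14 days, with -0.71 ± 0.18 (SE, adjusted p = 0.00969). MKNK2, a kinase of eIF4E, was higher at 14 days by 1.14 ± 0.20 (SE, adjusted p = 0.00103), and RPS6KB2, an S6 kinase, by 0.71 ± 0.16 (SE, adjusted p = 0.004). RPS6KB2 was higher at 7 days too, by 0.75 ± 0.16 (SE, adjusted p = 0.00216), whereas MKNK2 was not called then, at -0.25. Of 8 tested enzymes that place hypusine on EIF5A or diphthamide on EEF2, 3 rose and 0 fell at 7 days in the edgeR test (1 lower by DESeq2 and at an unadjusted p under 0.05, DPH7) and 2 rose and 2 fell at 14 days. DPH2 changed by 0.80 ± 0.15 (SE, adjusted p = 0.000913) at 7 days and -1.22 ± 0.15 (SE, adjusted p = 0.000218) between the scaffold groups, DPH3 by 0.99 ± 0.22 (SE, adjusted p = 0.00275) and 1.02 ± 0.22 (SE, adjusted p = 0.00309) against 2D, DPH7 by -0.91 ± 0.21 (SE, adjusted p = 0.00526) at 14 days and DPH5 by -0.64 ± 0.19 (SE, adjusted p = 0.0279) between the scaffold groups.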

How the data were processed

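RNA from 9 MEC1 samples, 3 per culture condition, was sequenced as single reads on an Illumina NovaSeq instrument. Per the labels and the study's methods, the authors used Trimmomatic 0.39 for trimming, STAR 2.5.3a for alignment against GRCh38 and featureCounts 1.6.4 for gene-level counting (versions from the submitters' processing notes). The deposited table holds raw counts per gene symbol, with the exon coordinates and the summed exon length in bases of each gene as another deposited column, which was used for RPKM and for the overlap of exons between genes. Strand setting and treatment of reads with several matches are not given in the sources used here, so overlapping genes and near-identical copies are uncertain.

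Groups and replicate numbers came from the sample descriptions. Genes with more than 1 CPM in at least 3 samples were kept (13463), TMM scaling was applied and 1 mean per group was fitted to all 9 samples with edgeR 4.0.16 (quasi-likelihood test, R 4.3.3, limma 3.58.1), adjusted by Benjamini-Hochberg over all tested genes, with calls at an adjusted p of at most 0.05. The SE is the absolute log2 fold change divided by the square root of F. Alternatives were DESeq2 1.42.0 (the tool the authors used), other scalings and filters, only the 6 samples of a contrast, removal of a length trend, addition of near-identical copies, a replicate block and each sample left out. The code was tested on simulated data. Within-sample ratios were compared by exact permutation tests, which with 3 against 3 samples cannot give a p under 0.1.

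Members with full statistics were the 5 with the smallest p per comparison and direction among those called, all eIF2 alpha kinases, eIF4E binding proteins, release factors and poly(A) binding proteins, and EIF2S1, EEF1A1, EEF2 and EEF2K. Of other genes, the 2 with the smallest p per list and comparison among those called were named, with EIF2AK2 added beside the other eIF2 alpha kinases. The rule for the members uses no measured value, but it, the lists, the TOP class and the naming rule were chosen with earlier results of these data known. The depth, at least 54662799 counts per sample, makes counting error small beside the spread between samples for nearly all members.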

Additional observations from a re-analysis of the deposited data

Results flagged for a closer look

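For 14 factors the fold change of the scaffold samples against 2D differed between the time points, by the direct contrast of 3D_14d with 3D_7d (edgeR quasi-likelihood test, adjusted p at most 0.05, n = 3 per group). That is 29.2% of the 48 tested factors, near the 28.1% of all tested genes called in this contrast. Since both time points were compared with the same 2D samples, the difference of these log2 fold changes is the one between the scaffold groups. It was 1.30 for EIF4EBP1 and 0.88 for EIF1, both lower at 7 than at 14 days. Levels were lower at 14 than at 7 days for the other 12. Among the initiation factors that bring tRNA and mRNA to the ribosome, the difference was -0.89 for EIF2S1, -0.84 for EIF4G1, -1.01 for EIF4G2 and -0.52 for EIF4EBP2. For eIF2B it was -0.62 for EIF2B1, -0.94 for EIF2B3 and -0.57 for EIF2B5. Within eIF3 it was -1.21 for EIF3C, -0.54 for EIF3I and -0.40 for EIF3L. For the release factor ETF1 it was -0.56 and for the kinase EEF2K -0.89. The calls of EIF2B1, EIF2B5, EIF3I, EIF3L, EIF4EBP2 and EEF2K were lost without single samples, as given with each gene.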

How the results depend on the processing

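Of 1560 alternative values of the named factors, 851 of those called in the reported fit kept direction and call, 29 lost the call and 0 changed direction. Of values not called, 621 stayed so with the same direction, 13 became called and 46 turned direction. The largest of the 13 are EIF4G2 at 14 days without replicate 1 of 3D_14d (0.64), EIF3B and EIF5 between scaffold groups without the same sample (0.59 and -0.45) and EEF1A1 between scaffold groups without replicate 3 of 3D_14d (0.43). Counts of called factors stayed within 1.5 times the reported ones, and medians within the spread, except as follows. With a change of at least 1 on the log2 scale required, 6 factors were higher and 3 lower at 7 days, 2 higher and 4 lower at 14 days, and 1 higher and 2 lower between scaffold groups. The share of all genes past this cut was not counted. Scaling by total counts alone gave 3 higher at 14 days and medians of 0.019 at 7 days and -0.20 at 14 days. With only the 6 samples of the contrast, 7 factors were lower at 14 than at 7 days, beside 1124 of all tested genes, against 1834 in the reported fit. The cause was not tested. With single samples left out, 13 to 20 factors were higher at 7 days (median 0.047 to 0.18, the lowest without replicate 3 of 2D) and 3 to 9 at 14 days (median -0.088 to 0.029), the fewest without replicate 3 of 2D. Over all tested genes these fits called 2051 to 3603 higher at 7 days and 1564 to 2845 at 14 days. Between scaffold groups 2 to 4 were higher, the most without replicate 3 of 3D_14d, and 6 to 15 lower, the fewest without replicate 3 of 3D_7d and 7 without replicate 2. The calls over all tested genes ranged there from 1193 to 2187 higher and from 1092 to 2141 lower.

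Values that turned direction were not called in either fit, and the cause was not tested. At 7 days EIF2AK1 was -0.12 with total counts, -0.014 with the length trend removed, -0.021 with block and trend, and -0.027 to 0.064 with samples left out. GSPT1 was -0.0072 with total counts and -0.027 to 0.20 with samples left out, and PABPC4 was -0.17 to 0.013 with samples left out. At 14 days total counts gave -0.18 for EIF2S1, -0.067 for EIF2AK3, -0.15 for EIF4EBP2, -0.11 for GSPT1 and -0.18 for PABPC4, and no filter gave -0.036 for EIF2S1, -0.0026 for EIF4EBP2 and -0.026 for PABPC4. With samples left out at 14 days, EIF2S1 ranged from -0.038 to 0.087, EIF2AK1 from -0.29 to 0.11, EIF4EBP2 from -0.068 to 0.20, GSPT1 from -0.084 to 0.24 and PABPC4 from -0.082 to 0.14. Between scaffold groups EEF2 was -0.038 with total counts, -0.0019 with edgeR's own filter and -0.035 with no filter, and GSPT1 was 0.019 with the length trend removed and 0.0054 with block and trend. With samples left out there, the ranges were -0.11 to 0.11 for EEF2, -0.25 to 0.0013 for EIF2B2, -0.15 to 0.094 for EIF2B4, -0.33 to 0.082 for EIF2AK1, -0.18 to 0.027 for EIF2AK4, -0.22 to 0.10 for GSPT1 and -0.0089 to 0.18 for PABPC4.

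Replicate numbers are shared between groups. Deviations of same-numbered samples from their group means correlated from -0.10 to 0.19 over 9 pairs, so not every pair was over 0.1 and the numbers were not taken to pair the samples. The same-numbered pairs of 2D and 3D_14d gave 0.093 to 0.19, and 6 of 9 samples correlated best with their own number, a hint from the data and not from the design. With the replicate block, 16 factors were higher and 13 lower at 7 days (median 0.18), 7 and 15 at 14 days (0.0094) and 2 and 12 between scaffold groups (-0.18), and with the block and the length trend together the last median was -0.24. Depth limits few members: EIF3C, with 4338 counts over all samples, was the lowest of those tested.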

Other observations

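The factors of the 5′ TOP class and the cytosolic ribosomal protein genes were both lower than 2D after 7 days, and their levels after 14 days are given side by side. Between 14 and 7 days 37 of 74 ribosomal protein genes were higher and 0 lower (median log2 fold change 0.66), beside 0 of 9 TOP class factors called (median 0.03). These 9 were listed among the members only, and further factors outside the members were not sorted by class. Of those, 6 of 25 tested were higher and 3 lower at 14 than at 7 days (median -0.10). Over all tested genes 14.5% were called higher and 13.6% lower in that comparison. Without replicate 1 of 3D_14d, the sample with the largest share of ribosomal protein counts, 25 ribosomal protein genes were higher and 2 lower (median 0.36), and 0 factors were higher and 1 lower (median -0.07). The share of counts in ribosomal protein genes was 4.05 to 4.77% in 2D, 1.62 to 1.78% in 3D_7d and 1.85 to 3.21% in 3D_14d. No test compared the lists with each other.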
